A study of Homo sapiens with 6 samples.

Results

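The HSP70 family was described here through 10 genes of the 60616 listed: HSPA1A, HSPA1B, HSPA1L, HSPA2, HSPA4, HSPA6, HSPA8, HSPA9, HSPA13 and HSPA14. They were taken by symbol, and the family was chosen because some of its genes had differed between the groups of these same libraries. Every difference between the groups for these 10 genes is therefore a description of the values that led to the choice. Where members are counted among the genes past the threshold of the whole table, the count is given as part of that description and supports nothing. The RNA-seq libraries came from OCI-AML3, a long-established line of human acute myeloid leukaemia cells. The control group, called controls below, was 3 libraries of cells with the empty vector pLenti, a lentiviral vector. The other group was 3 libraries of cells overexpressing SLC2A3, which encodes the glucose transporter GLUT3. All 6 cultures, controls included, received 250 µM vitamin C, so no group without the vitamin enters any value. The promoter that drives the transgene and the number of clones behind each line are not given in the sources used here, nor is it said whether replicates were separate cultures, so the spread between libraries may be technical.

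HSP70 proteins are chaperones that bind short hydrophobic stretches of unfolded protein and release them in a cycle of ATP binding and hydrolysis. J-domain proteins start the hydrolysis, and nucleotide exchange factors reset the cycle. HSPA8 (HSC70) works in the cytosol of unstressed cells, HSPA9 (mortalin) in mitochondria and HSPA5 (BiP) in the endoplasmic reticulum, while HSPA1A, HSPA1B and HSPA6 are the members known for transcription on heat or proteotoxic stress. Heat shock factor 1 (HSF1) drives that transcription from heat shock elements, which are inverted repeats of the unit GAA.

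Upstream sequences of the 3 stress-inducible members and of HSPA8 are shown first, so that the heat shock element letters can be read in place. They are from the RefSeq promoter table on GRCh38.p14, written 5′ to 3′ on the gene's strand. Those of HSPA6, HSPA1A and HSPA1B end before the first exon of GENCODE 29. Both HSPA8 sites lie within exons that GENCODE 29 annotates for HSPA8 transcripts other than the principal one, so only the sites with short flanks are printed. Capitals mark the GAA and TTC units of the motifs GAANNTTC and TTCNNGAA, searched on both strands.
HSPA6, chr1:161524290-161524539, plus strand: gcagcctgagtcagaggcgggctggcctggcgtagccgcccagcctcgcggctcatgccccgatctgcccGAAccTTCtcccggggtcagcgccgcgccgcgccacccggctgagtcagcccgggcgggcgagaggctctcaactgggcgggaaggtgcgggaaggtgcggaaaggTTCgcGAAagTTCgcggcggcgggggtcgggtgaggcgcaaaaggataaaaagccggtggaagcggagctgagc
HSPA1A, chr6:31815293-31815463, plus strand: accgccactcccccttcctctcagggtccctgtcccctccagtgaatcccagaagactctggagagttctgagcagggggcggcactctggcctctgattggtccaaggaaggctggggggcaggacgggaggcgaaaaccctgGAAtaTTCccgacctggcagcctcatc
HSPA1B, chr6:31827488-31827734, plus strand: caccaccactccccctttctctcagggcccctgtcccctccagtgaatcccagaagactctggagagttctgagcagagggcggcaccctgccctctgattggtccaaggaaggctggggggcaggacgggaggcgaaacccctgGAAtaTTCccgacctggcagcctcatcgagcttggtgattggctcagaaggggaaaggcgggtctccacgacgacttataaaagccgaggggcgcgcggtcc
HSPA8, distal site, chr11:123062348-123062372, minus strand: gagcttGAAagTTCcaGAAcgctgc
HSPA8, proximal site, chr11:123062173-123062197, minus strand: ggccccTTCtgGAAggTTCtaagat

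Of the 10 members, 9 were matched in the promoter table, HSPA14 not among them. The 2-unit motif was present within 250 bases upstream of the start in 5 of the 9, against 11.6% of 35116 promoter windows of the same length. HSPA6 held 3 matches, HSPA8 held 4, and HSPA1A, HSPA1B and HSPA1L held 1 each. The longer 3-unit motif (GAANNTTC followed by NNGAA, or TTCNNGAA followed by NNTTC, each containing 2 overlapping matches of the shorter one) occurred in 0.441% of windows and in 2 members. In HSPA6 it lay 74 to 62 bases upstream of the start. In HSPA8 it lay at 230 to 218 and again at 55 to 43 bases upstream. The windows of HSPA1A and HSPA1B were 93.6% identical (235 of 251 aligned columns), and their single matches lay 106 to 99 and 105 to 98 bases upstream. HSPA1L has no site of its own in this count: its start lies 260 bases from that of HSPA1A on the opposite strand, the 2 windows overlap by 241 bases, and its match is the HSPA1A match read from the other side. No match was found in the windows of HSPA2, HSPA4, HSPA9 and HSPA13, which says only that these letters are not there. CCAAT, the letters bound by NF-Y, was found on either strand in 11240 of the 35116 windows, and among the printed genes in HSPA1A, HSPA1B and HSPA8. A match is a description of letters, and binding was not measured.

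**Figure D1:**
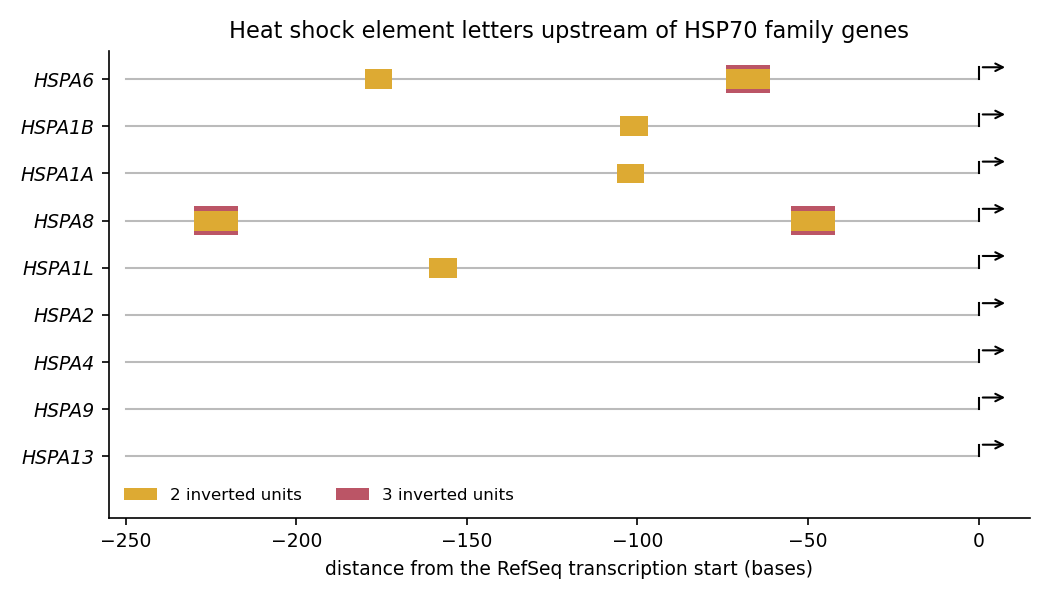
Matches to the heat shock element letters in the 250 bases upstream of the RefSeq start of 9 HSP70 family genes, drawn to scale, with distance from the start in bases on the horizontal axis and the arrow marking the direction of transcription. Narrow bars are 2 inverted units and the taller bars behind them 3 units. HSPA6 and HSPA8 are the genes with 3 units, and HSPA2, HSPA4, HSPA9 and HSPA13 have none.

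Values throughout are normalised read counts, that is, gene read counts divided by 1 size factor per library. Depth was 32581096 to 33162128 reads per library among controls and 31054462 to 35770556 in the SLC2A3 group. SLC2A3 itself, the check of the labels, stood at 1194, 1183 and 1257 in the control libraries and at 4056, 3716 and 4054 in the SLC2A3 libraries. The 10 myeloid marker genes each had a value of at least 100 in every library and summed to between 50157 and 54057. The 14 markers of B, T, erythroid, megakaryocytic and epithelial cells summed to between 162 and 263, with MS4A1, CD3D, CD3E and HBB at 0 throughout. Of these 14, however, 1 also had a value of at least 100 in every library. Single myeloid markers differed between the groups in both directions. FLT3 was called lower by limma, at 3254 ± 102 among controls against 2808 ± 103 (limma adjusted p = 0.0277). In 4 of the 10 (FLT3, CSF1R, ANPEP and LYZ) every SLC2A3 library lay below every control, which was so for 8.27% of tested genes. The log2 difference was positive in 4 of the 10, at most 0.27. By limma at an unadjusted p under 0.05, 1 was higher and 4 were lower (5.63% and 6.12% of all tested genes). CSF1R stood at 391 ± 28.7 against 292 ± 45.2 and was called lower by edgeR and DESeq2 but not by limma (adjusted p = 0.0587). The part of these differences in the results below was not tested. The noncoding RNA RN7SL1 moved with the group. It stood at 538, 1812 and 705 in the control libraries and at 2233, 6026 and 1922 in the SLC2A3 libraries, with replicate 2 highest in each group. With both replicates 2 left out, the log2 differences were 2.80 for HSPA6, 1.298 for HSPA1B, 0.82 for HSPA1A and 0.17 for HSPA8. In bulk RNA, more cells expressing a gene and more RNA per cell cannot be told apart.

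The stress-inducible members carried the largest differences in the family. HSPA6 (ENSG00000173110.8, chromosome 1, 161524540 to 161526910, GRCh38) is a single-exon gene that rodents lack and that is known for very low RNA in unstressed human cells. It stood at 105, 138 and 118 in the control libraries and at 842, 707 and 727 in the SLC2A3 libraries. The lowest SLC2A3 library was thus far above the highest control. The means were 120 ± 16.7 and 759 ± 73.0 (SD, n = 3 each), a ratio of 6.30 and a log2 difference of 2.65 (SE 0.12) on the log2(value + 1) scale.

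HSPA1B (ENSG00000204388.7, chromosome 6, 31827735 to 31830255) and HSPA1A (ENSG00000204389.10, chromosome 6, 31815464 to 31817946) encode the main inducible HSP70 and lie side by side in the major histocompatibility complex. HSPA1B stood at 233, 186 and 211 in the control libraries and at 517, 522 and 579 in the SLC2A3 libraries. Its mean was 210 ± 23.6 against 539 ± 34.4 (SD, n = 3 each), 2.57 times higher, with a log2 difference of 1.36 (SE 0.11). HSPA1A was the most abundant inducible member, at 1378, 1442 and 1463 in the control libraries and 2552, 2435 and 2450 in the SLC2A3 libraries. Its mean was 1428 ± 44.1 against 2479 ± 63.6 (SD, n = 3 each), 1.74 times higher, with a log2 difference of 0.80 (SE 0.06). The groups did not overlap for either gene.

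These copies share sequence, and the sources used here do not give the counting rule for such reads. The coding sequences of HSPA1A and HSPA1B were identical at 99.8% of aligned bases, and 67.3% of the 100-base stretches of HSPA1A also occurred in HSPA1B. Their separate values are therefore uncertain. The sum of both does not depend on how shared reads were split between the copies, but it is too low if such reads were left uncounted. It was 1611, 1628 and 1674 in the control libraries and 3069, 2956 and 3029 in the SLC2A3 libraries, a ratio of 1.84. HSPA1B made up 12.8% ± 1.54 of that sum among controls and 17.9% ± 1.15 in the SLC2A3 group (SD, n = 3 each), with no overlap between the libraries.

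HSPA6 has a near copy of its own, HSPA7, which is annotated as a pseudogene on the same chromosome. Of the 100-base stretches of HSPA6, 27.6% also occurred in HSPA7, and none in HSPA1A. HSPA7 stood at 89.6, 115 and 119 in the control libraries and at 100, 94.0 and 84.4 in the SLC2A3 libraries, and its log2 difference of -0.21 did not pass the test (limma adjusted p = 0.767). HSPA6 accordingly made up 52.8% of the HSPA6 and HSPA7 reads among controls and 89.1% in the SLC2A3 group. HSPA1L, the testis-enriched neighbour of HSPA1A, shared none of its 100-base stretches with HSPA1A.

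**Figure D2:**
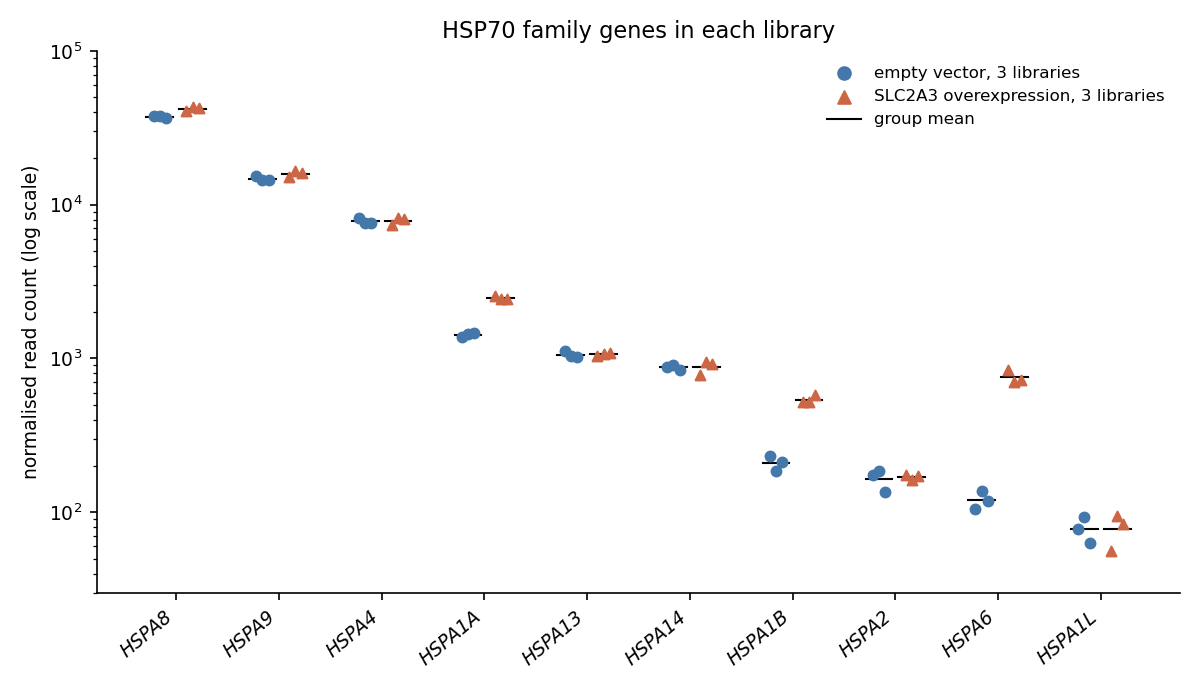
Normalised read counts of the 10 HSP70 family genes in each of the 6 libraries on a log axis, with circles for the empty vector, triangles for SLC2A3 overexpression and a line at each group mean. HSPA6, HSPA1B, HSPA1A and HSPA8 have groups that do not overlap, and HSPA6 moves from 120 to 759.

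HSPA8 (ENSG00000109971.14, chromosome 11, 123057489 to 123063230), the constitutive cytosolic chaperone that also uncoats clathrin vesicles, was the most abundant member. It stood at 37491, 37928 and 36278 in the control libraries and at 40862, 42914 and 42388 in the SLC2A3 libraries. The groups did not overlap, but the ratio was only 1.13 and the log2 difference 0.18 (SE 0.03). Because of its level, this small ratio amounted to more normalised reads than any other member gained: 4822, against 1125 for HSPA9, 1051 for HSPA1A, 638 for HSPA6 and 329 for HSPA1B. Without SLC2A3 overexpression replicate 3, HSPA8 no longer passed the threshold that follows, at a log2 difference of 0.17.

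Across the whole table, 194 of 28015 tested genes (0.692%) were called higher in the SLC2A3 group by limma at an adjusted p under 0.05, and 224 (0.800%) lower. All 10 members passed the filter on low values, and 4 of them were among the higher genes, HSPA6, HSPA1B, HSPA1A and HSPA8. The same 4 were those with every SLC2A3 library above every control, which was so for 8.04% of tested genes (8.27% had every SLC2A3 library below, 16.3% either way). Nothing is read from these counts, since the family was chosen on this comparison. The median log2 difference of the members was 0.08, beside 0.00 for all tested genes.

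The members of the other compartments differed little. HSPA9 (ENSG00000113013.16, chromosome 5, 138553756 to 138575724), the mitochondrial HSP70 that pulls proteins through the inner membrane, stood at 15319, 14383 and 14412 in the control libraries and 15081, 16457 and 15948 in the SLC2A3 libraries. Empty vector replicate 1 lay above SLC2A3 replicate 1, so the groups overlapped. The log2 difference was 0.11 (SE 0.04, 95% interval 0.02 to 0.19). HSPA13 (ENSG00000155304.6, chromosome 21, 14371115 to 14383484), a microsome-associated member, stood at 1114, 1041 and 1021 against 1037, 1065 and 1087, a log2 difference of 0.01 (95% interval -0.13 to 0.15).

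HSPA4 (ENSG00000170606.15, chromosome 5, 133051962 to 133106449) belongs to the HSP110 branch, whose proteins act as nucleotide exchange factors for HSP70. It stood at 8149, 7597 and 7580 in the control libraries and at 7394, 8187 and 8056 in the SLC2A3 libraries, and the lowest and the highest value both came from the SLC2A3 group. Its log2 difference was 0.02 (95% interval -0.08 to 0.11). HSPA14 (ENSG00000187522.16, chromosome 10, 14838164 to 14871741), which is part of the ribosome-associated complex, stood at 877, 912 and 844 against 778, 953 and 915, a log2 difference of 0.00 (95% interval -0.16 to 0.17). A second gene ID, MSANTD7, which GENCODE 29 lists under the name HSPA14, overlaps this locus and was counted apart, at a mean of 1048 against 1097.

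The testis-enriched members also had low values. HSPA2 (ENSG00000126803.9, chromosome 14, 64535905 to 64546173), a chaperone of spermatogenesis, stood at 174, 185 and 135 in the control libraries and 175, 161 and 173 in the SLC2A3 libraries. The log2 difference was 0.05 (95% interval -0.26 to 0.36). HSPA1L (ENSG00000204390.10, chromosome 6, 31809619 to 31815065) stood at 77.4, 93.0 and 63.1 against 55.7, 94.9 and 84.4, a log2 difference of -0.01 whose 95% interval ran from -0.49 to 0.47. With 60 to 99 reads per library, a difference for HSPA1L of the size seen for HSPA8 was not detectable at this depth.

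**Figure D3:**
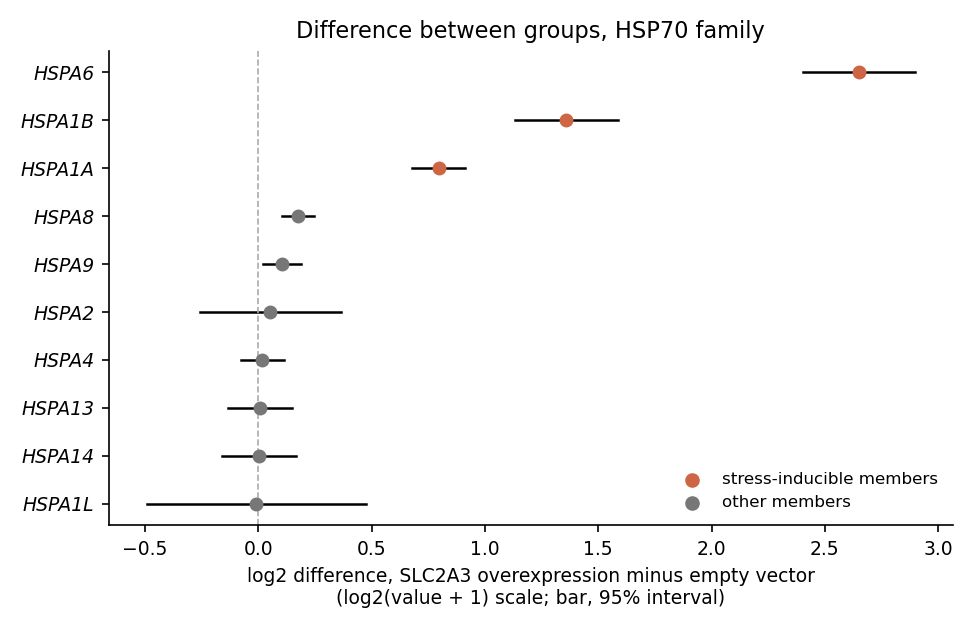
Log2 difference of each HSP70 family gene, SLC2A3 overexpression minus empty vector on the log2(value + 1) scale, with bars for the 95% interval from 3 libraries per group. HSPA6, HSPA1B and HSPA1A stand apart at 2.65, 1.36 and 0.80, and the other 7 genes lie between -0.01 and 0.18.

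Among controls the spread between replicates was widest for the 4 members with the fewest reads. The coefficient of variation was 2.3% for HSPA8, 11.2% for HSPA1B, 13.8% for HSPA6, 19.2% for HSPA1L and 15.9% for HSPA2, where counting error alone gives 0.52%, 6.95%, 9.21%, 11.5% and 7.89%. In the SLC2A3 group HSPA1L was again the most variable, at 25.9%, and HSPA13 the least, at 2.36%. Within the SLC2A3 group HSPA6 was highest in replicate 1, HSPA1B in replicate 3 and HSPA8 in replicate 2, so no single library was highest for all of the members with non-overlapping groups.

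Levels of different genes were compared per kilobase of merged exon length. Levels of HSPA1A, HSPA1B and HSPA6, and their share of reads given after, would be too low if reads shared with their copies were left uncounted. In the empty vector group the order was HSPA8 at 7678 ± 176 per kb, HSPA9 at 1781 ± 64.5, HSPA4 at 1509 ± 62.8, HSPA1A at 575 ± 17.8, HSPA14 at 332 ± 12.9, HSPA13 at 252 ± 11.7, HSPA1B at 83.4 ± 9.38, HSPA6 at 50.8 ± 7.03, HSPA1L at 30.6 ± 5.89 and HSPA2 at 28.5 ± 4.54 (SD, n = 3). HSPA1L and HSPA2 were the neighbours whose libraries overlapped. In the SLC2A3 group HSPA6 stood sixth in the family, at 320 ± 30.8 per kb, a level that overlapped that of HSPA14 above it (334 ± 34.8). HSPA13 (254 ± 5.98) and HSPA1B (214 ± 13.6) followed, and HSPA1L and HSPA2 still overlapped at the bottom. The order at the low end and the overlaps depend on the length used. Per kilobase of the principal transcript alone, a measure added after the data were seen, HSPA8 stayed first, at 17032 ± 391 among controls. HSPA2 came out at 59.6 ± 9.48 and HSPA6 at 50.8 ± 7.03 among controls, with overlapping libraries. HSPA1L, at 30.6 ± 5.89, then lay below HSPA2 with no overlap. In the SLC2A3 group, by this measure, HSPA6 (320 ± 30.8) did not overlap HSPA14 (463 ± 48.4). HSPA2 (61.3 ± 2.66) and HSPA1L (30.8 ± 7.98) did not overlap there either.

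The 10 genes together took 0.192% ± 0.004 of library reads among controls and 0.216% ± 0.007 in the SLC2A3 group (SD, n = 3 each). HSPA1A, HSPA1B and HSPA6 supplied 2.64%, 2.76% and 2.88% of the family's reads in the control libraries. In the SLC2A3 libraries they supplied 5.64%, 4.98% and 5.19%, so the share was about 1.91 times as large and the libraries did not overlap. The difference of the means was 2.51 percentage points, and 4.97 points when levels per kb of merged exons were used (5.76% to 10.7%). HSPA8 kept a nearly equal share, 58.5% ± 0.80 against 58.6% ± 0.30. HSPA4 went from 12.2% ± 0.33 to 11.0% ± 0.27 of the family's reads, with no overlap, while its own value overlapped between groups. Of the family's gain of 8084 normalised reads, the 3 inducible genes accounted for 24.97% and the 7 others, mainly HSPA8, for 75.03%.

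**Figure D4:**
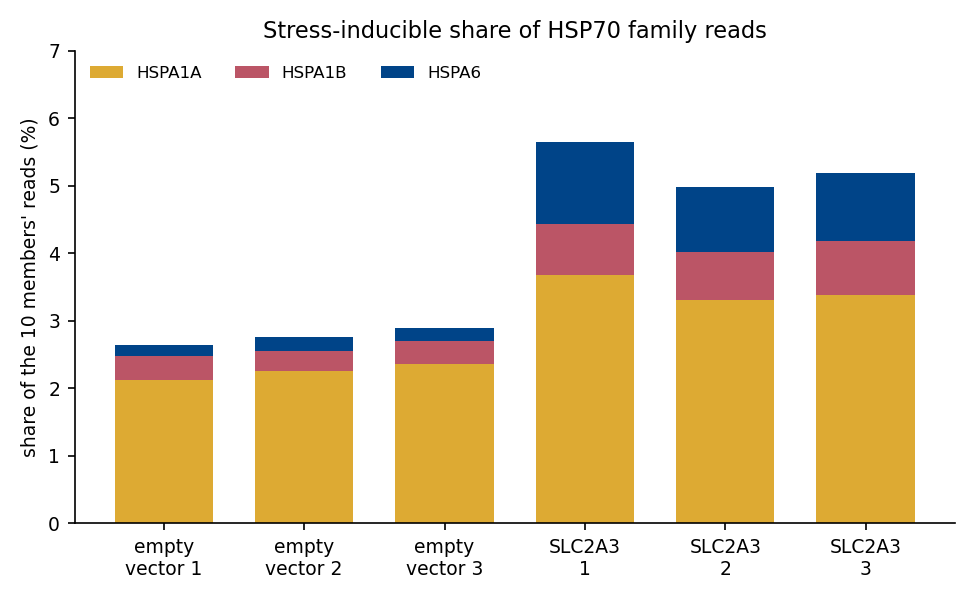
Share of the 10 HSP70 family genes' reads that came from HSPA1A, HSPA1B and HSPA6, in percent, stacked for each of the 6 libraries from a baseline of 0. The stack reaches 2.64% to 2.88% in the control libraries and 4.98% to 5.64% in the SLC2A3 libraries, and the HSPA6 layer goes from 0.19% to 1.06% on average.

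The relatives left out of the 10 were tested on their own. None of the 7 other HSP70 superfamily genes passed limma's test, and 2 had an unadjusted p under 0.05, both higher, as they also did by edgeR and DESeq2. These were HSPA5, at 19124 ± 385 against 20448 ± 275 (log2 difference 0.10, limma adjusted p = 0.226), and HSPH1, the HSP110 disaggregase, at 5080 ± 56.6 against 5575 ± 222 (0.13, limma adjusted p = 0.172). DESeq2 called both higher, and edgeR neither. HYOU1, the HSP110 relative of the endoplasmic reticulum, stood at 5816 ± 60.8 against 5524 ± 71.6 (-0.07, limma adjusted p = 0.549).

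The genes that work with HSP70 were followed in 7 further lists, which hold 93 genes together, 91 of them tested. Of the relatives above, HSPH1, HYOU1 and HSPA4L are among the 93 as nucleotide exchange factors, and the others are not. Limma called 5 higher and 2 lower (7.69%, beside 1.49% of all tested genes), and the median log2 difference was 0.05. The 1.49% includes many genes of low value. With a minimum value of 50 in 3 libraries, 7 of 86 list genes were called higher and 2 lower, beside 322 and 417 of 13374 genes. These lists were also chosen with earlier results of these data known, so the share called is a description. Counts at an unadjusted p under 0.05 are given below for several lists, and over all tested genes this was so for 5.63% in the higher and 6.12% in the lower direction, 11.8% in all.

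Among 40 J-domain co-chaperones, 1 was called higher and 1 lower by limma and by edgeR, and DESeq2 called 3 higher, adding DNAJB11 and DNAJC7, and 1 lower. An adjusted p was given to 39 of them by edgeR and to 33 by DESeq2. DNAJB1 (HSP40), the inducible partner of HSPA1A, rose from 2015, 2096 and 2206 to 3371, 2903 and 3082 (SLC2A3 libraries), a log2 difference of 0.56 (SE 0.06, limma adjusted p = 1.07e-06). GAK, the J-domain protein with which HSPA8 strips clathrin from vesicles, fell by 0.18 on the log2 scale, from 7279 ± 96.5 to 6416 ± 253 (SD, n = 3 each, limma adjusted p = 0.0243). The abundant DNAJA1 and DNAJC5 did not pass, at log2 differences of -0.01 and -0.10. Among 13 genes listed as nucleotide exchange factors, BAG6, which guards tail-anchored and misfolded proteins, was lower, at 9328 ± 296 against 10441 ± 187 among controls (-0.16, limma adjusted p = 0.0344), and 0 were higher. Whether BAG6 acts as an exchange factor was not tested. By limma 5 of the 13 were higher at an unadjusted p under 0.05, and edgeR called 0 and DESeq2 2 of them higher. None of the 11 adaptors and ubiquitin partners was called by limma or edgeR, nor any of the 10 to which DESeq2 gave an adjusted p. In limma 2 had an unadjusted p under 0.05. In that list STIP1 (HOP), which bridges HSP70 and HSP90, differed by 0.08 and CDC37, the kinase co-chaperone, by 0.05.

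The regulators showed no called change in their own RNA. HSF1 stood at 7260, 7453 and 7708 in the control libraries and 7722, 7851 and 7150 in the SLC2A3 libraries, which overlap (log2 difference 0.02, limma adjusted p = 0.929). HSF2 differed by -0.02 (limma adjusted p = 0.966), and HSBP1, which binds and restrains HSF1 trimers, by 0.14 (limma adjusted p = 0.224). Of the 5 tested regulators, 0 were called by limma or edgeR, and 0 of the 3 to which DESeq2 gave an adjusted p. By each of these methods 1 had an unadjusted p under 0.05. RNA levels do not report HSF1 activity, which is set largely on the protein.

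Of 22 tested targets of heat shock factors outside the family, 9 were higher and 0 lower at an unadjusted p under 0.05 in limma. Of the 21 with an adjusted p by edgeR and the 20 by DESeq2, 0 were called lower. Limma called 4 higher and 0 lower. Besides DNAJB1, these were the following. HSPB1 (HSP27), a small chaperone that holds unfolded proteins, rose from 5908 ± 242 to 7126 ± 222 (log2 difference 0.27, SE 0.05, limma adjusted p = 8.61e-04). HSP90AA1, the inducible cytosolic HSP90, rose from 79593 ± 2180 to 93171 ± 1526 (0.23, SE 0.03, limma adjusted p = 1.08e-04). FKBP4, an HSP90 co-chaperone of steroid receptors, rose from 9258 ± 209 to 10402 ± 205 (0.17, SE 0.04, limma adjusted p = 0.0239). Every SLC2A3 library lay above every control for all 4. The constitutive paralogue HSP90AB1 stood at 66997 ± 555 against 66468 ± 1531 and did not pass (-0.01, limma adjusted p = 0.936). This list was drawn up with results of these data known, so its count is not independent evidence of a direction.

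In the mitochondrial machinery around HSPA9, 0 of 14 genes were called by limma or edgeR and 3 were higher at an unadjusted p under 0.05. DESeq2 called 1, HSPD1 (HSP60), whose limma log2 difference was 0.11 (adjusted p = 0.154). TRAP1, the mitochondrial HSP90, differed by 0.06. In the last list, 6 ribosome-associated and clathrin-uncoating partners, BTF3, the beta subunit of the nascent polypeptide-associated complex, rose from 20144 ± 388 to 22746 ± 342 (0.18, SE 0.04, limma adjusted p = 0.00632), and GAK, which both lists hold, fell. NACA, the partner subunit of BTF3, stood just outside the threshold, at 18930 ± 197 against 20761 ± 60.6 (0.13, limma adjusted p = 0.0514). NACA was called higher by edgeR (adjusted p = 0.0331), by DESeq2 (5.03e-04) and by limma with a minimum value of 50 (0.0259). LAMP2, the lysosomal receptor of chaperone-mediated autophagy, differed by -0.07.

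**Figure D5:**
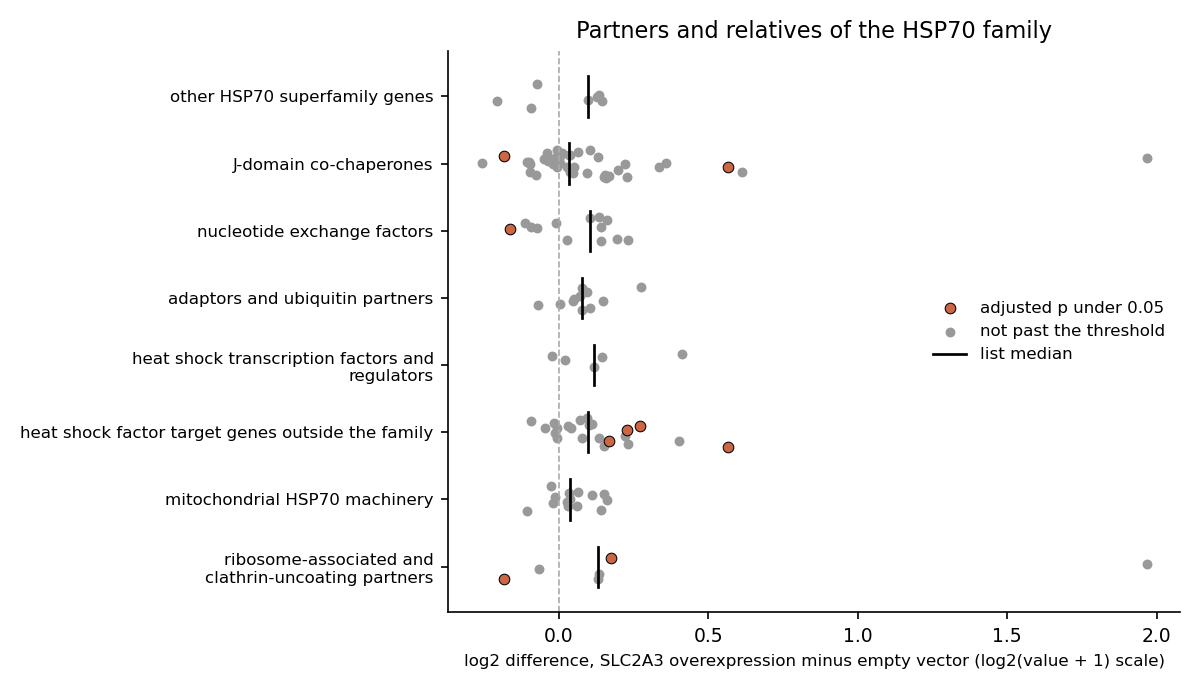
Log2 difference (SLC2A3 overexpression minus empty vector, log2(value + 1) scale) of each tested gene in 8 lists of HSP70 relatives and partners, with filled red points for genes past the limma threshold and a black line at each list's median. DNAJB1 at 0.56 is the red point farthest to the right, the list medians lie between 0.04 and 0.13, and the grey point near 2, in both lists that hold it, is DNAJC6, with a mean of at most 8.38 normalised reads in either group, chosen for mention after its values were seen.

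The calls among partners varied in how much they rested on single libraries. DNAJB1, HSP90AA1 and HSPB1 were called under all 15 alternative settings. BTF3 was not called without empty vector replicate 3 (limma adjusted p = 0.0628) or without SLC2A3 replicate 3 (0.0549), and FKBP4 was not called in 5 settings. GAK and BAG6 were each not called in 7 settings. Their differences kept the same sign in all 15, from -0.21 to -0.14 for GAK and from -0.19 to -0.14 for BAG6.

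Last, genes outside the family whose pattern over the 6 libraries was most like that of the inducible members were ranked among 13266 named genes with a mean of at least 50, by Pearson correlation of log2(value + 1). For HSPA6 they were CKB, PTMA, ASS1, ANKRD24 and PHGDH, with r between 0.994 and 0.999. For the sum of HSPA1A and HSPA1B they were SLC2A3, ASS1, CD70, CKB and ANKRD24, the first with r = 0.9997. All of these share the step between the groups, and the 6 points fall into those groups, so the likeness is a description of it. Over the deviations from the group means, which remove the step, none of those genes was among the top 5. For HSPA6 the closest then were CENPM, HNRNPA1L2, ZNF768, ALDH3A2 and RABGGTA (r from 0.991 to 0.996), and for the sum CRACR2A, RCN3, BRMS1, SSRP1 and LSM14B. With 6 libraries and so many candidates, values of this size describe the ranking only.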

How the data were processed

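The deposited values are a normalised signal per gene for 6 libraries. Per the labels' protocols, RNA was extracted with Trizol and libraries were made with a directional kit. BWA, TopHat2 and hg38 are named, without roles, per the submitters' processing notes. The gene annotation and the use of strand in counting are not given in the sources used here. From the values, 100% were whole multiples of 1 step per library within 0.001 reads, so reads could be recovered.

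log2(value + 1) was fitted with limma 3.58.1 (R 4.3.3, trend), group being the sole term. The 28015 genes reaching a value of 1 in 3 or more libraries were tested, with Benjamini-Hochberg adjustment and a threshold of 0.05. The plan set limma for normalised values and edgeR for raw counts. The deposited values were normalised, so limma was used, with edgeR 4.0.16 and DESeq2 1.42.0 run on recovered reads as alternatives. Both left some genes without an adjusted p, and they could not call those genes. Replicates differed beyond sampling noise (chi-square per gene 3.50 to 6.78), so all were kept. On simulated data for this comparison (29517 genes), limma found 71% of the 100 genes with a 1.5-fold change and 92% of the 100 with a 2-fold change, with 0 of 163 calls false. The changed genes were drawn from means well above the filter's minimum, and the spread was set by a formula, not estimated from these libraries. These figures therefore do not give the sensitivity or error rate of the fit reported here.

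The members and all gene lists were chosen with earlier results of these data known. Genes named were the 10 members, SLC2A3, every list gene past the threshold (at most 6 per list), the 2 most abundant others per list, HSF1, HSF2, HSPA5, HSPA7 and HSPH1, and the 5 genes most like HSPA6 and like HSPA1A plus HSPA1B. RN7SL1, MSANTD7 and DNAJC6 were added after their values were seen. Of 60660 IDs, 60641 matched a symbol. Coordinates and lengths are from GENCODE 29 (GRCh38) and promoters from RefSeq (GRCh38.p14).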

Additional observations from a re-analysis of the deposited data

How the results depend on the processing

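The differences of all 10 members stayed within 1 replicate SD of the reported ones under the 15 alternatives, with ranges of 2.56 to 2.80 for HSPA6, 1.27 to 1.44 for HSPA1B, 0.77 to 0.82 for HSPA1A and 0.16 to 0.20 for HSPA8. Of the members, 4 were called higher, or 3 without SLC2A3 overexpression replicate 3. The inducible share differed by 2.51 points, by 4.97 points per kb of merged exons and by 2.53 points per kb of principal transcript, the last added after seeing the data. Whole-table counts moved: DESeq2 called 343 higher and 441 lower, a minimum of 50 in 3 libraries 322 and 417, a pseudocount of 0.1 called 144 lower, and leaving out 1 library gave 100 to 222 higher and 88 to 244 lower, fewest without SLC2A3 overexpression replicate 3. Without empty vector replicate 3 the counts were 121 and 100, without empty vector replicate 1 132 were lower, and without SLC2A3 overexpression replicate 2 140 were lower. For the partner lists DESeq2 called 11 higher, and leaving out 1 library gave 3 to 5 higher and 0 to 2 lower. Of the partners called lower, 1 was left with a pseudocount of 0.1 and 0 without both libraries highest in RN7SL1, where the log2 differences were -0.14 for GAK and -0.15 for BAG6. The causes were not tested. Replicate numbers did not pair the samples (r of same-numbered deviations -0.11, 0.01 and -0.00 over 11730 genes, n = 3 pairs). With the replicate block, 167 genes were called higher and 196 lower, 4 members higher and 0 lower, and 4 partners higher and 0 lower. Leaving out 1 library turned the sign of the members near 0, with ranges of -0.16 to 0.22 for HSPA1L, -0.08 to 0.14 for HSPA2, -0.00982 to 0.0637 for HSPA4, -0.0189 to 0.0440 for HSPA13 and -0.06 to 0.09 for HSPA14. Directions also reversed for partners near 0: without both libraries highest in RN7SL1 HSF1 was at -0.00963, and leaving out 1 library gave -0.0284 to 0.0206 for DNAJA1, -0.000368 to 0.0861 for CDC37, -0.00785 to 0.0596 for HSF1 and -0.0783 to 0.0649 for HSF2. Depth limits HSPA1L and HSPA2, with 60 to 188 reads per library.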

Other observations

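The files list 17 processed pseudogenes of HSPA8, of which 12 had reads. Their mean values summed to 92.4 among controls (empty vector) and 136 in the SLC2A3 group, beside 37232 and 42055 for HSPA8. HSPA8P15 gave most of these, at 78.4, 51.0 and 44.1 in the control libraries and 89.1, 94.0 and 96.1 in the SLC2A3 libraries, and it shares no 100-base stretch with HSPA8.

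The members differ in gene structure. In GENCODE 29 the principal transcripts of HSPA1A, HSPA1B, HSPA2 and HSPA6 have 1 exon and that of HSPA1L has 2, with its coding sequence in 1 of them. HSPA8 has 8 exons, HSPA9 17, HSPA4 19, HSPA13 5 and HSPA14 14. Against the coding sequence of HSPA1A, identity was 81.1% for HSPA1L, 80.7% for HSPA6, 80.1% for HSPA2, 73.8% for HSPA8, 53.9% for HSPA9 and between 43.7% and 45.7% for HSPA4, HSPA13 and HSPA14. HSPA1B (99.8%), HSPA1L, HSPA6 and HSPA2 are all closer to HSPA1A in coding sequence than HSPA8 is. Values of HSPA1B, HSPA6 and HSPA8 did not overlap between the groups, and those of HSPA2 and HSPA1L did. The 95% intervals of the log2 difference for HSPA2 (-0.26 to 0.36) and HSPA1L (-0.49 to 0.47) are wide and contain the HSPA8 difference of 0.18.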
